A study of Mus musculus with 8 samples.

Results

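Ccr7, S1pr1, Il7r, Klf2, Klf3 and Bcl2 are genes of T cell homing to, exit from and survival in lymphoid organs, and they were taken as a named list of 6 of the 21887 protein-coding genes placed on the mouse genome build mm10. The values described here are the H3K9me2 coverage and the ATAC-seq peaks over the span of each gene with 5 kb and with 50 kb added on both sides. Regulatory T cells (Treg) sorted from tumours were assayed for H3K9me2 by CUT&RUN, a method that releases marked DNA with a nuclease tethered to an antibody. There were 3 libraries of the genotype JMJD1CTregcKO (cKO, a knockout of Jmjd1c, which encodes a histone demethylase of the Jumonji family, conditional to Treg) and 3 libraries of WT. ATAC-seq, which reads accessible DNA through transposase insertion, was available for 1 library of tumour Treg and 1 of spleen Treg, both of the genotype JMJD1CWT. All mice were C57BL/6 and 8 to 12 weeks old. The Cre driver, the tumour model and the number of mice behind each library are not given in the sources used here, so the replicates may be technical and the p-values measure only the spread between these libraries. The lists of a histone mark do not measure the deletion itself.

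CCR7 is the chemokine receptor that draws T cells into lymph nodes, and S1PR1 senses sphingosine 1-phosphate and lets them leave again. KLF2 activates S1pr1 and other homing genes in resting T cells, and FOXO1 acts above Klf2, Ccr7 and Il7r. KLF3 is a related factor that mostly represses, acting with the CtBP corepressors. IL7R binds interleukin-7, a survival signal, and BCL2 is a mitochondrial protein that blocks apoptosis. H3K9me2 is a histone mark found mostly in silent chromatin, and Jumonji demethylases can remove it.

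Promoter windows from 250 bases before to 50 after the start, taken from RefSeq on GRCm38.p6, are shown for the 4 genes matched in that table. The windows of Klf3 and Bcl2 were touched by a peak of 1 tissue only, and that of Klf2 by peaks of both. Peaks were 322 bp wide in tumour and 869 bp in spleen, which bears on whether a peak reaches a window. Capitals mark the bases under the peak of a single tissue, tumour in Klf2 and Bcl2 and spleen in Klf3. In Klf2 (chr8:72318812-72319111, plus strand) 271 bases lay under the tumour peak, and the spleen peak, chr8:72318642-72319510, covered the whole window. In Klf3 (chr5:64803271-64803570, plus strand) 144 bases lay under the spleen peak. The tumour peak ended at 64803260, just short of the window, and touched the spleen peak. In Bcl2 (chr1:106714241-106714540, minus strand) 160 bases lay under a tumour peak, and no spleen peak touched the window. The Il7r window (chr15:9529827-9530126, minus strand) held no ATAC peak of either tissue.
Klf2: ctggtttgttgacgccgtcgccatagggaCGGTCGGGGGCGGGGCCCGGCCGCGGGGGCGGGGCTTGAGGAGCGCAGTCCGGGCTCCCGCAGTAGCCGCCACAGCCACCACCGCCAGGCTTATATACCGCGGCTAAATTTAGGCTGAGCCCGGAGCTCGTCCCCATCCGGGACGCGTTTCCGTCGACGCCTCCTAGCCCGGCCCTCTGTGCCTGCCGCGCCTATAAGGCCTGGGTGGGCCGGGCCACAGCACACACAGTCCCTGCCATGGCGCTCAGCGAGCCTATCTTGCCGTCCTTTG
Klf3: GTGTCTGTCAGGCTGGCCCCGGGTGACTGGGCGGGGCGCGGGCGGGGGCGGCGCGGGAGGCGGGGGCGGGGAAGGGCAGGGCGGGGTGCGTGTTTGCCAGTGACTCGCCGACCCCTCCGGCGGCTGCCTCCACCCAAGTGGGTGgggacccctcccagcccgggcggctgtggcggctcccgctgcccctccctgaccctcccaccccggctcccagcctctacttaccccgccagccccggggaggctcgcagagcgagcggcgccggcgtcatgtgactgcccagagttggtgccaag
Bcl2: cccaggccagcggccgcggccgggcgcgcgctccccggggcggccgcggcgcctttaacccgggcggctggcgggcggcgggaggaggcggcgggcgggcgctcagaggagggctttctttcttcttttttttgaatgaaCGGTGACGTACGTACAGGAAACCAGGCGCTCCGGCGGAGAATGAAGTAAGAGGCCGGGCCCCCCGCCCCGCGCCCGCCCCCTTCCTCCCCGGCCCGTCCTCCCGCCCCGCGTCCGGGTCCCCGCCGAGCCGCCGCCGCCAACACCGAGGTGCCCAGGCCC
Il7r: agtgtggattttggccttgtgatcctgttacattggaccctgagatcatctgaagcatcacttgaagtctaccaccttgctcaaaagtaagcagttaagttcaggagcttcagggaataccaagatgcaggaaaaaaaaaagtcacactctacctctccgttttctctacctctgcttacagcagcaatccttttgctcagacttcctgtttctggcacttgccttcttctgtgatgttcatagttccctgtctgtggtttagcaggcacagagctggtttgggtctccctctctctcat

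Over all 21263 promoter windows, 38.9% were touched by a tumour peak and 32.0% by a spleen peak. The GC content was 69.3% in Klf2, 76.7% in Klf3, 76.0% in Bcl2 and 45.7% in Il7r, beside a median of 56.3% over all windows. An H3K9me2 peak touched the Il7r window in 1 library, WT replicate 2, and none touched the other 3 windows in any library. Motifs were searched on both strands, with overlapping matches counted. The KLF-type box CACCC, present in 59.5% of all windows, matched 5 times in Klf3, 1 time in Klf2 and not in Bcl2 or Il7r. The GC box GGGCGG, present in 46.2% of windows, matched 7 times in Bcl2, 6 times in Klf3 and 2 times in Klf2. The STAT-type motif TTCNNNGAA, present in 7.69% of windows, matched 1 time in Il7r, and the forkhead motif TGTTTAC, present in 3.01%, matched in none of the 4.

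The H3K9me2 libraries held 24774509 to 30313851 tags and 109589 to 178201 peaks on chromosomes 1 to 19, X and Y, which covered 89.3 to 141 Mb. The list of cKO replicate 1 was the longest, although that library had the fewest tags. Coverage is the percent of a region lying under merged peaks. No gene passed limma with Benjamini-Hochberg adjustment at 0.05, neither among the 19016 genes tested with 5 kb (0%) nor among the 20834 tested with 50 kb (0%). Before adjustment, 1591 genes had a p under 0.05 with 5 kb, 1412 of them higher in cKO and 179 lower, and 3312 did with 50 kb, 3183 higher and 129 lower. With each library scaled by its own total coverage, the splits were 963 to 311 and 1644 to 515. With every list cut to the length of the shortest by score (lists of equal length), they were 287 to 220 and 476 to 163. The median difference of cKO minus WT over all tested genes was 1.26 percentage points with 5 kb and 1.21 with 50 kb, 0.722 and 0.654 points after that scaling, and 0.388 and 0.363 points with lists of equal length. The values of single genes below are therefore to be read against a general excess in cKO, most of which was lost with lists of equal length. The names of the tag directories in the headers carry different prefixes in cKO and WT, and what they mark is not given, so it cannot be told apart from genotype. Those of cKO replicates 1 and 3 share a knockout number.

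H3K9me2 peaks covered more of the regions of the 6 genes in cKO, by 2.34 points at the median with 50 kb and by 2.29 points with 5 kb. The medians over all tested genes were 1.21 and 1.26 points. No gene was past the threshold, and at Klf2 with 5 kb the difference was 0. After scaling the medians of the 6 genes were 1.56 and 1.91 points, beside 0.654 and 0.722 over all tested genes. With lists of equal length the medians were 0.895 and 0.619 points over the 5 genes that could still be tested. Of these, 3 with 50 kb and 4 with 5 kb were higher in cKO, beside 62.2% and 57.3% of all tested genes. The 3 cKO and 3 WT values did not overlap, cKO being higher, for S1pr1, Klf2 and Il7r with 50 kb and for S1pr1 with 5 kb. Over all tested genes this held for 21.3% with 50 kb and 13.0% with 5 kb, and the opposite order held for 0.883% and 1.34%. None of the 6 genes showed that opposite order. With lists of equal length the groups overlapped at all 6 genes at both widths, while cKO was higher without overlap at 4.74% of all tested genes with 50 kb and 3.81% with 5 kb, and lower at 2.29% and 2.49%. The cut shortened the list of cKO replicate 1 most, from 178201 to 109589 peaks. The mean over the 6 regions with 50 kb was 5.12 to 6.56% in the cKO libraries and 2.26 to 3.84% in the WT libraries.

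**Figure D1:**
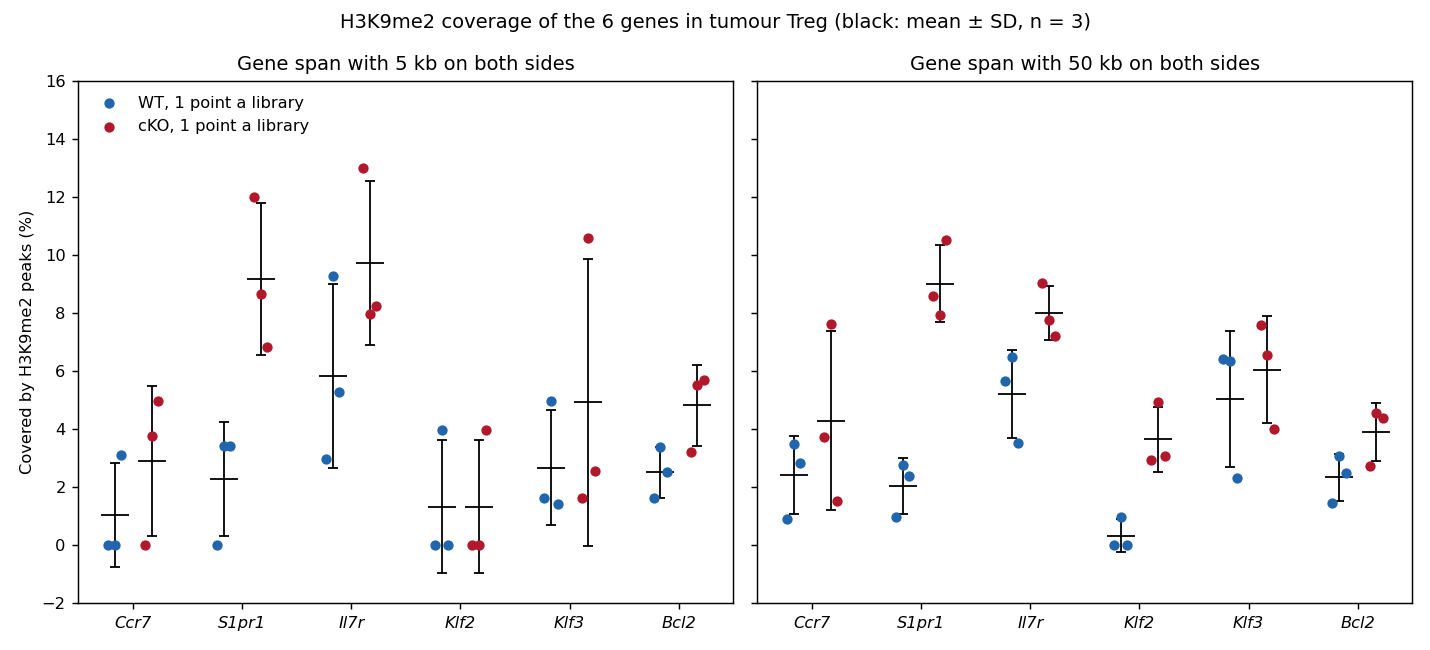
Percent of each region covered by H3K9me2 peaks in 3 cKO (red) and 3 WT (blue) libraries, with 5 kb (left) and 50 kb (right) on both sides; black bars give the mean and SD. The S1pr1 values of cKO, 7.94 to 10.5% with 50 kb, lie above those of WT, 0.956 to 2.75%, in these lists as deposited, while those of Klf3 and Ccr7 overlap.

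S1pr1, the exit receptor, had the widest separation of the 6. It lies at chr3:115710433-115715055, with no other protein-coding gene within 50 kb. With 50 kb on both sides the coverage was 8.59, 7.94 and 10.5% in the cKO libraries (replicates 1 to 3, here and below) and 0.956, 2.75 and 2.39% in the WT libraries. In the lists as deposited, every cKO library was thus above every WT library. The means were 9.02 ± 1.35% and 2.03 ± 0.948% (SD, n = 3 each), a difference of 6.99 points (SE 1.42). By p, S1pr1 ranked 2 of 20834 genes, and its limma adjusted p of 0.0696 did not pass the threshold. The limma adjusted p was 0.0304, 0.0203 and 0.0140 without cKO replicate 1, 2 or 3, with differences of 7.21, 7.53 and 6.23 points. It was 0.550, 0.223 and 0.168 without WT replicate 1, 2 or 3, with differences of 6.45, 7.35 and 7.17. With no filter on low values it was 0.323. Cut to equal length, the lists gave a coverage of 1.48, 5.47 and 10.5% in cKO and 0.478, 2.27 and 2.39% in WT, so that cKO replicate 1 lay among the WT libraries. The difference was then 4.12 points, with a limma adjusted p of 1.0.

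With 5 kb on both sides S1pr1 had 12.0, 8.66 and 6.84% in cKO and 0, 3.42 and 3.42% in WT. The groups were again apart, at 9.17 ± 2.61% and 2.28 ± 1.97% (SD, n = 3), with a limma adjusted p of 0.519. This difference was 0 with lists of equal length, at 2.28% in both groups, and no peak was left in cKO replicates 1 and 2. The gene span itself held 1 peak in cKO replicate 3 and 1 in WT replicate 3, and the excess lay outside it. From 5 to 50 kb away the coverage was 9.0 ± 1.85% in cKO and 1.99 ± 0.789% in WT (SD, n = 3). From 50 to 100 kb it was 7.29 ± 0.367% and 3.80 ± 1.28%, still without overlap. From 100 to 200 kb it was 7.39 ± 2.48% and 6.79 ± 3.19%, and the groups overlapped. No test was run on these distance classes.

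The S1pr1 region with 50 kb held 14, 13 and 15 H3K9me2 peaks in the cKO libraries and 2, 4 and 5 in the WT libraries. They were short and weak, 500 to 1551 bp long, with a median score of 6.0 tags beside medians of 8.0 to 9.5 tags over whole lists. The cKO peaks mostly lay at different places in different libraries, since 23405 bp were covered in at least 1 cKO library, 4249 bp in 2 or more and 660 bp in all 3. Those 660 bp formed 2 stretches, neither covered in a WT library. The first, chr3:115690970-115691342, began 19.5 kb from the gene on its low-coordinate side and touched no ATAC peak of either tissue. The second, chr3:115758173-115758459, began 47.7 kb above the low-coordinate end of the gene and touched an ATAC peak of both tissues. That tumour peak, chr3:115758399-115758721, was the strongest within 50 kb of S1pr1, with a score of 86.0 tags and rank 2741 of 27625, and H3K9me2 peaks of all 3 cKO libraries and of WT replicate 2 touched it.

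**Figure D2:**
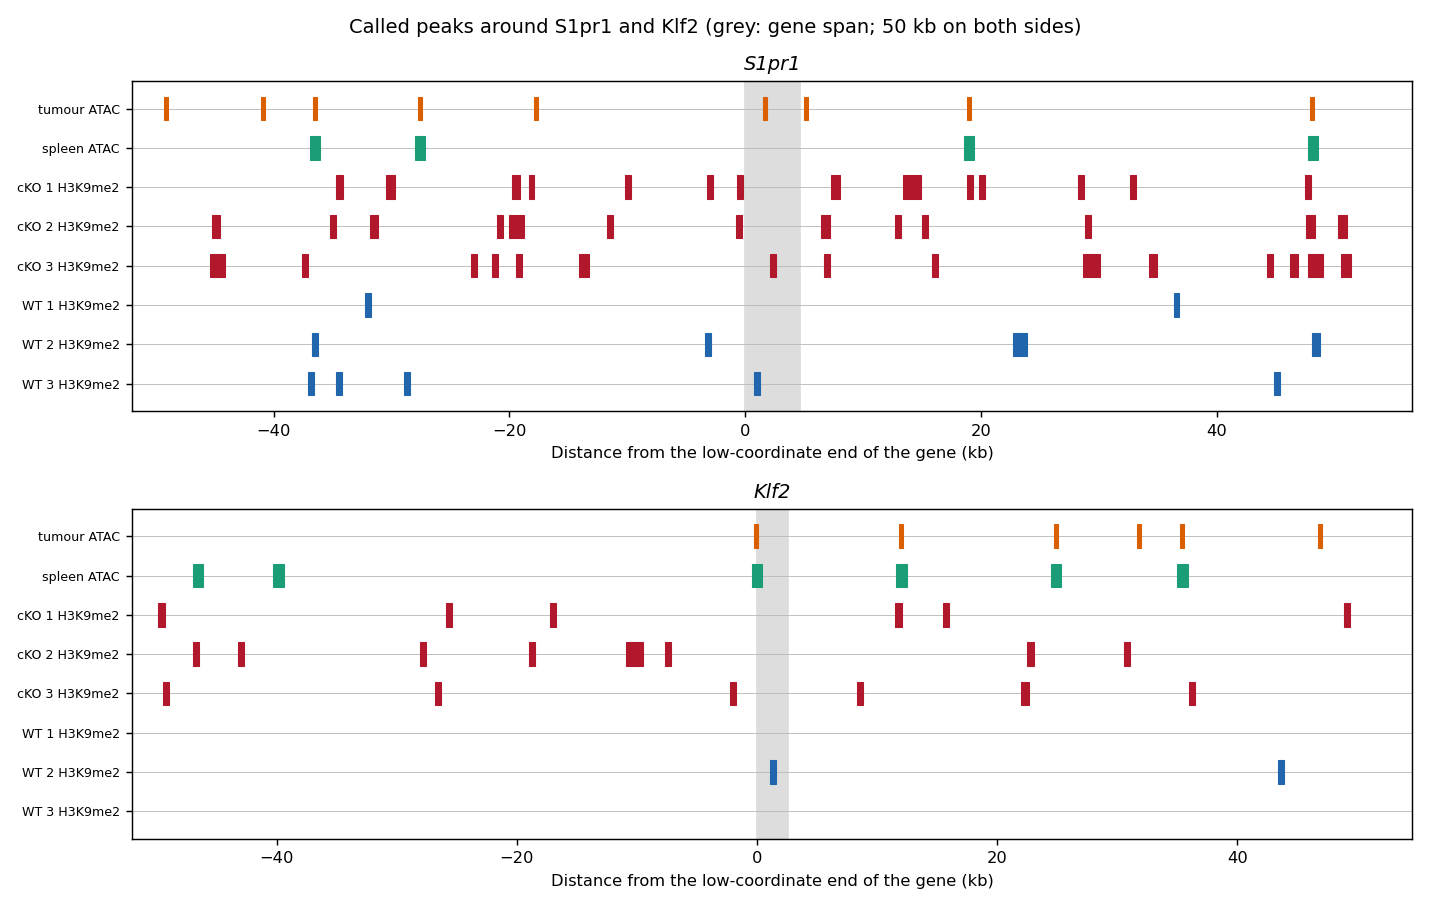
Peaks of the 2 ATAC and 6 H3K9me2 libraries around S1pr1 and Klf2, each bar being 1 called peak to scale, against the distance in kb from the low-coordinate end of the gene (grey). Around S1pr1 there are 42 cKO and 11 WT H3K9me2 peaks, and around Klf2 there are 20 and 2.

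Klf2, the factor that activates S1pr1, lies at chr8:72319062-72321654, with Eps15l1 the other protein-coding gene within 50 kb. With 50 kb the coverage was 2.92, 4.93 and 3.06% in cKO and 0, 0.975 and 0% in WT. All cKO values were above all WT values, from a low level in both. The means were 3.64 ± 1.12% and 0.325 ± 0.563% (SD, n = 3), a difference of 3.31 points (SE 0.983; limma adjusted p = 0.147). The region held 6, 8 and 6 peaks in cKO and 0, 2 and 0 in WT, with 305 bp covered in 2 or more cKO libraries and none in all 3. Lists of equal length gave a coverage of 0, 0.614 and 1.11% in cKO and 0, 0.975 and 0% in WT, which overlapped and was too low to be tested. Near the gene there was no such difference. With 5 kb, cKO replicate 3 and WT replicate 2 had 3.97% each and the other 4 libraries had 0. The WT peak lay on the gene and the cKO peak beside it, so the excess came from 5 to 50 kb away, at 3.96 ± 1.45% and 0.185 ± 0.321% (SD, n = 3).

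Il7r, the interleukin-7 receptor chain, lies at chr15:9506159-9529941, with Capsl and Spef2 within 50 kb. With 50 kb the coverage was 9.03, 7.77 and 7.22% in cKO and 5.64, 6.47 and 3.51% in WT. The groups did not overlap, but WT replicate 2 came within 1 point of the lowest cKO value. The means were 8.01 ± 0.928% and 5.20 ± 1.53% (SD, n = 3), with a limma adjusted p of 0.350. The values with lists of equal length were 1.72, 7.14 and 7.22% in cKO and 3.86, 4.45 and 3.51% in WT, and cKO replicate 1 was the lowest of the 6. With 5 kb the values were 13.0, 7.97 and 8.24% in cKO and 2.96, 9.26 and 5.26% in WT, and they overlapped (limma adjusted p = 0.636). From 50 to 100 kb away the order was the other way round, with 5.95 ± 3.04% in cKO and 9.73 ± 3.84% in WT, and these values overlapped as well. From 100 to 200 kb away the cKO values, 12.3, 8.17 and 6.40%, lay above the WT values, 3.53, 5.37 and 2.64%. With 100 kb on both sides the difference was -0.138 points, and with 200 kb it was 2.34 points, with overlapping groups at both widths.

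For Ccr7, the lymph node homing receptor at chr11:99144199-99155077, the groups overlapped at both widths. With 50 kb the coverage was 3.73, 7.61 and 1.5% in cKO and 0.902, 3.49 and 2.84% in WT (limma adjusted p = 0.450). The cKO values were spread the more widely, with cKO replicate 3 below 2 of the WT libraries, and the lists of equal length gave a difference of -0.0340 points. With 5 kb, the values were 0, 3.76 and 4.95% in cKO and 0, 0 and 3.09% in WT (limma adjusted p = 0.683).

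Klf3, the repressor, lies at chr5:64803521-64832901, with Gm38457 the other protein-coding gene within 50 kb. It was the least different of the 6 with 50 kb, at 7.57, 6.56 and 4.0% in cKO and 6.42, 6.33 and 2.32% in WT. The difference of 1.02 points was smaller than the SD of either group, 1.84 and 2.34 (limma adjusted p = 0.721), and it was -0.331 without WT replicate 3 and -0.134 with lists of equal length. With 5 kb cKO replicate 2 stood out, with 10.6% beside 1.62 and 2.54% in the other cKO libraries and 1.61, 4.96 and 1.42% in WT. Without that library the difference of 2.26 points became -0.584.

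Bcl2, the survival gene at chr1:106538176-106714290, is the longest of the 6, so its 2 windows hold mostly the gene itself. Kdsr is the other protein-coding gene within 50 kb. With 50 kb the coverage was 2.73, 4.54 and 4.38% in cKO and 1.45, 3.06 and 2.49% in WT (limma adjusted p = 0.496). With 5 kb it was 3.21, 5.53 and 5.69% in cKO and 1.61, 3.38 and 2.51% in WT (limma adjusted p = 0.621). In both windows cKO replicate 1 lay below WT replicate 2. On the gene span alone, where no test was run, the 3 cKO values of 3.39, 5.56 and 5.73% were above the WT values of 1.70, 2.86 and 2.66%. The bases covered in all 3 cKO libraries formed 1 stretch of 277 bp, chr1:106601169-106601445, of which 61 bp were covered in no WT library.

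**Figure D3:**
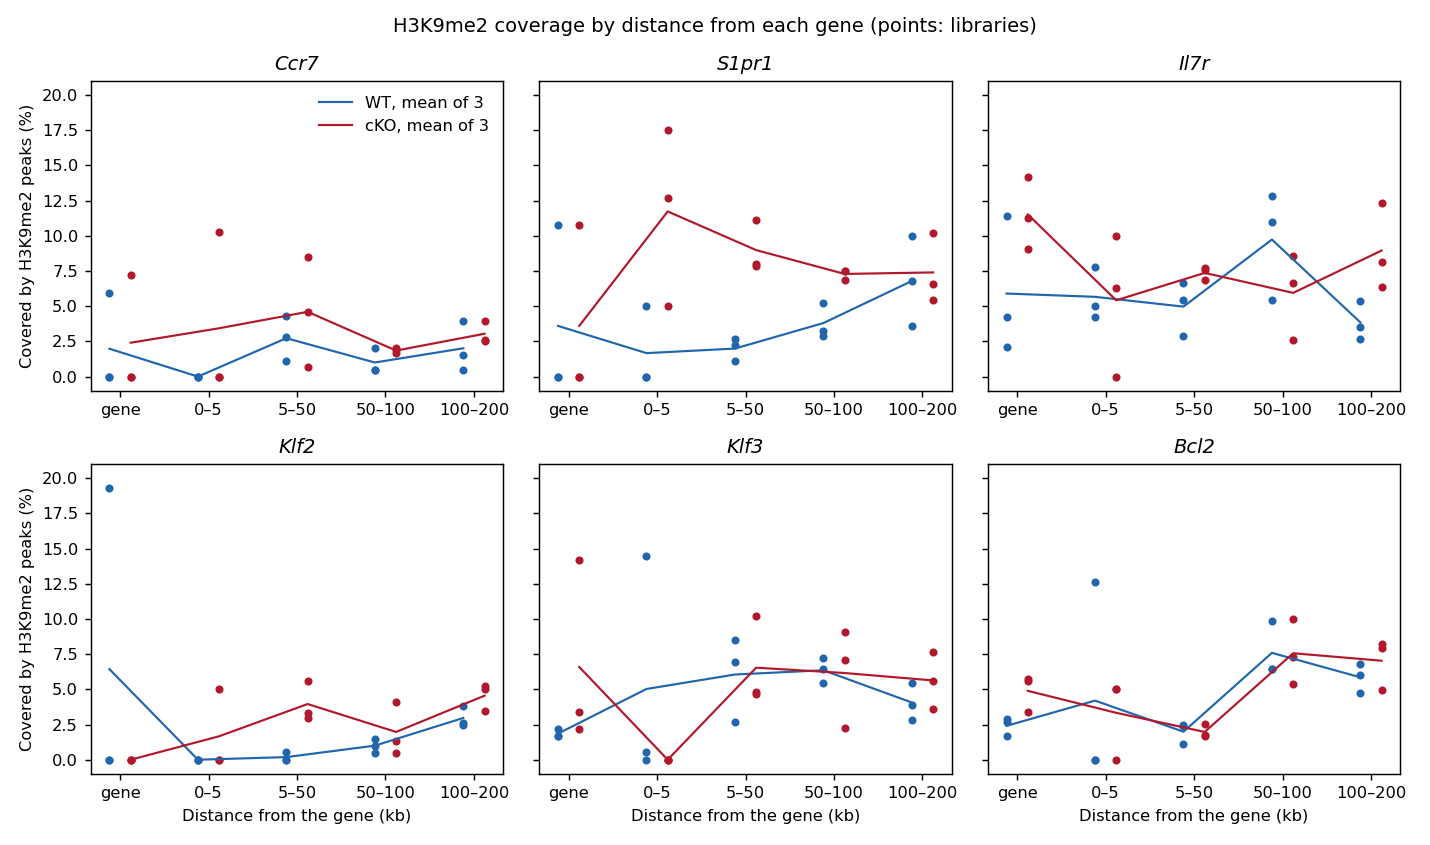
Percent covered by H3K9me2 peaks on the gene span and in 4 classes of distance from it, for 3 cKO (red) and 3 WT (blue) libraries; points are libraries and lines join group means. At S1pr1 the means are 9.0 and 1.99% from 5 to 50 kb and 7.39 and 6.79% from 100 to 200 kb.

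In WT the order of the means with 50 kb was Il7r at 5.20%, Klf3 at 5.02%, Ccr7 at 2.41%, Bcl2 at 2.33%, S1pr1 at 2.03% and Klf2 at 0.325%. Il7r and Klf3, and likewise Ccr7, Bcl2 and S1pr1, differed by less than their SDs. In cKO the order was S1pr1 at 9.02%, Il7r at 8.01%, Klf3 at 6.04%, Ccr7 at 4.28%, Bcl2 at 3.88% and Klf2 at 3.64%, and each neighbouring pair had overlapping libraries. S1pr1 was the fifth in WT and the first in cKO. Of genes on other chromosomes, the one closest to S1pr1 over the 6 libraries was Dcbld2, at a Euclidean distance of 2.59 points, with 9.55, 9.14 and 9.98% in cKO and 2.47, 4.0 and 2.85% in WT. The closest gene was Rnf10 for Klf2 (0.798 points), Hcfc1 for Il7r (0.764), Rhcg for Ccr7 (1.03), Zfp758 for Klf3 (1.37) and Sectm1b for Bcl2 (0.495). These distances describe likeness over 6 libraries only.

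**Figure D4:**
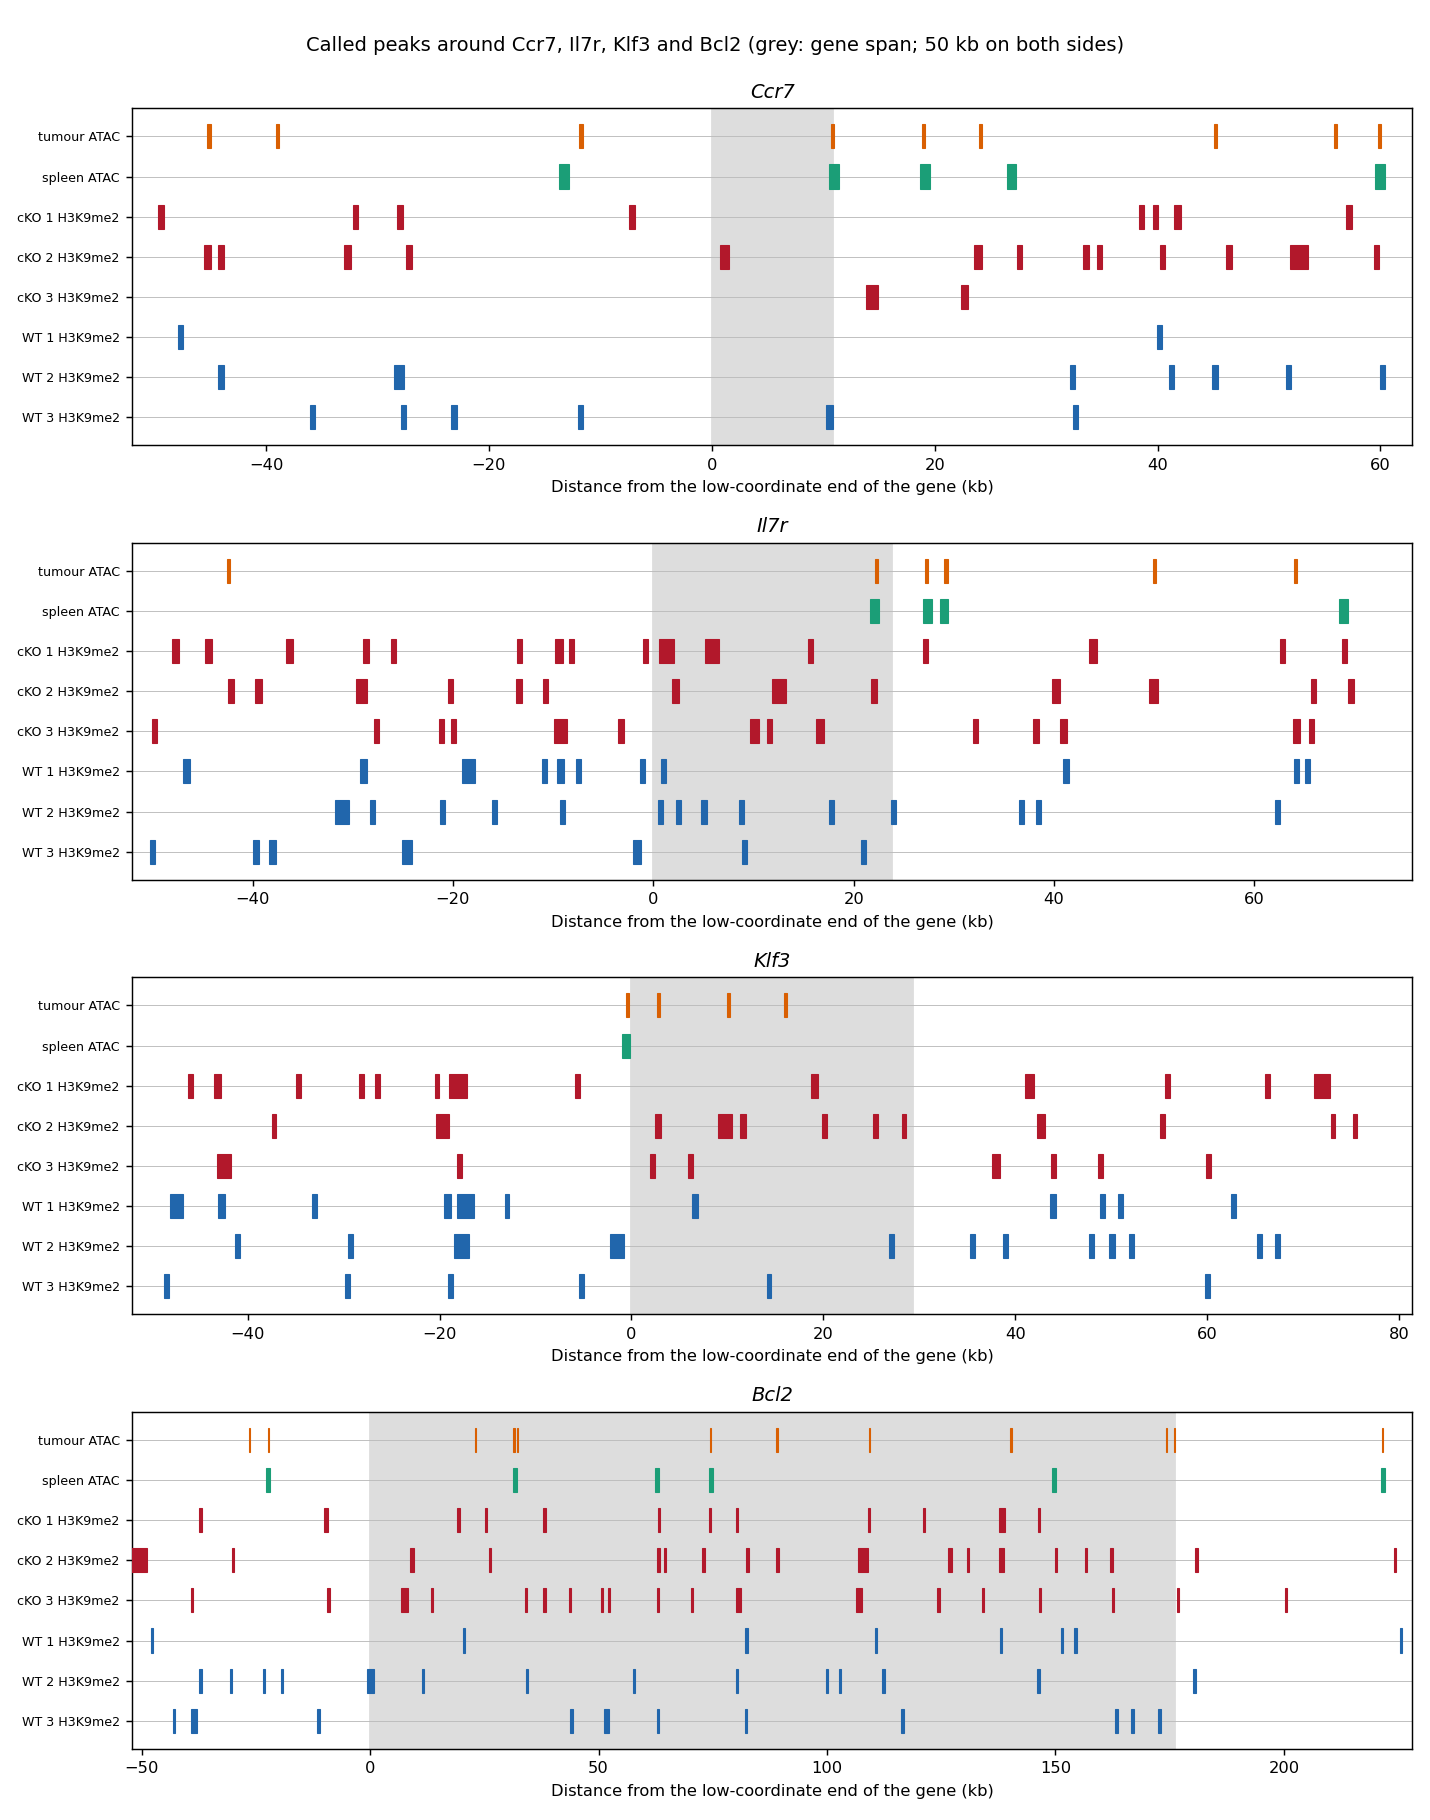
Peaks of the 2 ATAC and 6 H3K9me2 libraries around Ccr7, Il7r, Klf3 and Bcl2, each bar being 1 called peak to scale, against the distance in kb from the low-coordinate end of the gene (grey). H3K9me2 peaks of both genotypes lie across the Il7r and Klf3 regions, with 43 and 32 peaks at Il7r and 33 and 29 at Klf3 in cKO and WT.

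The other genes of these pathways were 58 genes in 6 groups, of which 48 were tested with 5 kb and 56 with 50 kb, and none passed limma. With 50 kb, 49 of 56 were higher in cKO, beside 82.0% of all tested genes, with a median difference of 1.56 points beside 1.21. The cKO and WT values of 16 (28.6%) were apart, all with cKO higher, beside 21.3% of all genes. With 5 kb, 35 of 48 were higher, beside 71.2% of all tested genes, with a median of 1.14 points beside 1.26. Of these 48 genes, 5 (10.4%) were apart, beside 13.0% of all genes. The share apart with 5 kb was thus below the background. With lists of equal length 39 and 32 of these genes were tested, the medians were 0.556 and 0.446 points, and the groups were apart at 1 gene with 50 kb, Klf6 (named after its values were seen), and at none with 5 kb. Of the genes named below, none that could still be tested was apart with those lists.

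Among the exit genes, the groups were apart with 50 kb at 3 of 10. Sphk2, a kinase that makes sphingosine 1-phosphate, was covered to 3.86 ± 0.783% and 0.768 ± 0.266% (cKO and WT; limma adjusted p = 0.174). S1pr5, a receptor of the same lipid, had 2.91 ± 0.494% and 0.682 ± 0.242%, and Sgpl1, the lyase that degrades it, had 6.21 ± 1.12% and 4.48 ± 0.990% (SD, n = 3). With 5 kb Sgpl1 was also apart, as was S1pr4, a further receptor, at 6.86 ± 2.98% and 3.03 ± 2.67%. Of the 9 homing and adhesion receptors only Ccr9, which guides T cells to the gut, was apart with 50 kb, at 6.01 ± 2.04% and 2.24 ± 1.43%.

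Among the 12 KLF family genes and regulators, 4 were apart with 50 kb. Foxo1, the factor above Klf2 and Il7r, had 3.55 ± 0.468% in cKO and 2.09 ± 1.35% in WT (SD, n = 3), and its relative Foxo3 had 4.21 ± 0.393% and 2.27 ± 1.37%. In both, WT replicate 1 was far below the other WT libraries. Klf13 had 5.11 ± 1.57% and 2.48 ± 0.508%, and Klf7 had 8.02 ± 0.222% and 6.33 ± 1.52%. Klf7 was also apart with 5 kb, at 6.31 ± 0.994% and 3.64 ± 0.254%.

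Among the 11 genes around interleukin-7 signalling, Gfi1, a repressor known to act on Il7r, had the lowest adjusted p of the 58 genes with 50 kb. Its coverage was 3.08, 7.07 and 6.64% in cKO and 0.458, 2.29 and 1.37% in WT (limma adjusted p = 0.147). With 5 kb Gfi1 had no peak in any cKO library and 2.61% in WT replicates 2 and 3. Il2rg, the shared receptor chain, had 7.02 ± 0.735% and 4.29 ± 0.913% with 50 kb. Jak1, a kinase on that receptor, was apart with 5 kb at 3.63 ± 0.465% and 1.97 ± 1.40%. Stat5a, a factor downstream of it, had 1.77, 1.40 and 1.40% in cKO and 0 in every WT library with 5 kb, which was too low to be tested.

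In the BCL2 family the groups were apart with 50 kb at 6 of 14 genes (42.9%, beside 21.3% of all genes) and with 5 kb at 1 of 10 (10.0%, beside 13.0%), and with lists of equal length at none of the 7 tested at either width. The 6 were the inhibitor of apoptosis Bcl2l1 and 5 genes of proapoptotic BH3-only proteins, Bcl2l11, Bid, Bmf, Bik and Hrk. Bcl2l11, which encodes BIM, the antagonist of BCL2, had 7.41, 6.23 and 3.04% in cKO and 1.94, 2.92 and 1.19% in WT (limma adjusted p = 0.203). Bcl2l1 had 2.64 ± 0.826% and 0.886 ± 0.858%, Bid 2.95 ± 0.281% and 1.34 ± 0.616%, and Bik 3.68 ± 1.99% and 0.982 ± 0.765%. Hrk had 3.84 ± 0.953% and 1.43 ± 1.11%. Bmf was apart at both widths, with 6.84 ± 1.16% and 3.71 ± 1.45% with 50 kb and 5.84 ± 2.27% and 1.41 ± 1.31% with 5 kb. No H3K9me2 or ATAC peak lay within 50 kb of the CCR7 ligand genes Ccl19 and Ccl21a in the lists used here, and they were not compared.

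The ATAC libraries held 11293674 tags in tumour Treg and 11068821 in spleen Treg, with 27625 and 13078 peaks of 322 and 869 bp. The headers give 11.03% of tags in peaks for tumour and 4.77% for spleen. With 1 library a tissue no test was possible, and each count has no replicate check. As deposited, the counts of the 6 genes were never lower in tumour than in spleen. With 5 kb, Bcl2 had 9 tumour and 4 spleen peaks, Klf3 4 and 1, and S1pr1 2 and 0, while Il7r had 2 in each and Ccr7 and Klf2 1 in each. With 50 kb the counts were 12 and 6 at Bcl2, 9 and 4 at S1pr1, 9 and 5 at Ccr7, 6 and 4 at Il7r, 4 and 1 at Klf3 and 6 in each at Klf2. More tumour than spleen peaks were thus found at 3 of the 6 genes with 5 kb and 5 of 6 with 50 kb, beside 33.5% and 59.2% of all genes. More spleen peaks were found at 2.09% and 2.52% of all genes and at none of the 6.

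These differences turned with lists of equal length but not with the stronger 50% of each list, which leaves the tumour list the longer. With that 50% cut more tumour peaks were found at 4 of 6 genes with 5 kb and 5 of 6 with 50 kb. More spleen peaks were found at 1 of 6 at both widths. The share over all genes was not computed for that cut. When the tumour list was cut to the 13078 peaks of highest score, none of the 6 genes had more tumour peaks at either width, beside 11.2% of all genes with 5 kb and 22.3% with 50 kb. More spleen peaks were found at 1 of 6 genes with 5 kb, beside 10.0% of all genes, and at 4 of 6 with 50 kb, beside 18.3%. The 5 kb case was Bcl2, with 1 tumour and 4 spleen peaks. With 50 kb Bcl2 had 2 and 6, S1pr1 1 and 4, Il7r 3 and 4 and Klf2 5 and 6, while Ccr7 had 5 in each and Klf3 1 in each. Most tumour peaks around Bcl2 and S1pr1 were therefore among the weaker ones of their list, below a score of 28.0 tags.

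**Figure D5:**
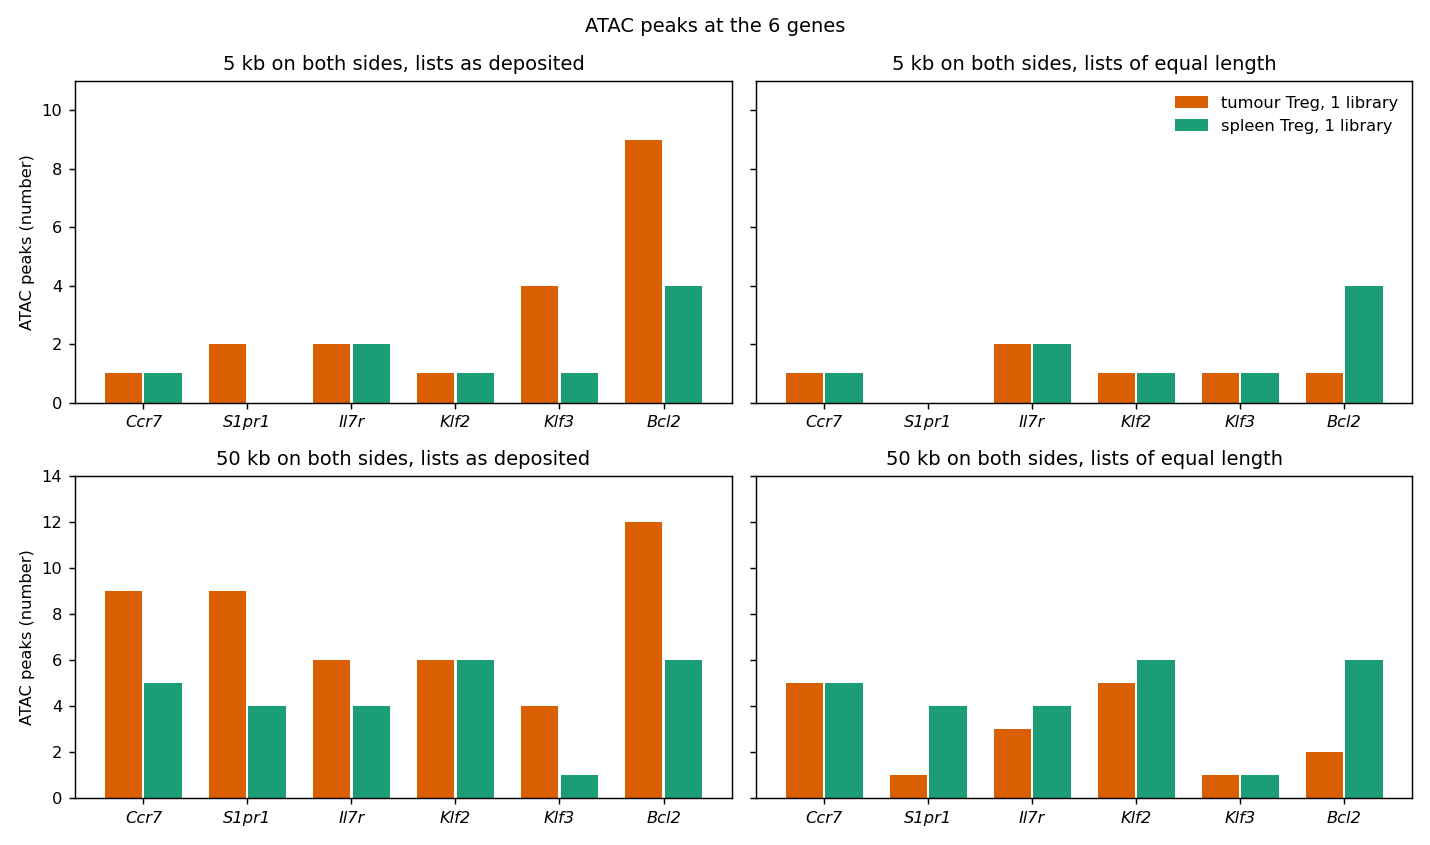
Number of ATAC peaks in 1 tumour (orange) and 1 spleen (green) Treg library whose centre lies within the gene span with 5 kb (top) or 50 kb (bottom) on both sides, for the lists as deposited (left) and cut to equal length (right). At Bcl2 with 50 kb the counts are 12 and 6 as deposited and 2 and 6 with equal lists.

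At each of the 6 genes the peak with the highest score in either tissue touched a peak of the other tissue. At Klf2 the peak over the start site, in the window printed above, had a score of 80.0 tags in tumour (rank 3208 of 27625) and 76.5 in spleen (rank 816 of 13078). At Bcl2 the strongest peak lay 45.5 kb upstream of the start, at chr1:106759594-106759916 in tumour, with a score of 118.5 (rank 1236), and a spleen peak of rank 1487 touched it. Another gene, Kdsr, also lies within 50 kb of Bcl2, and which gene the site 45.5 kb upstream serves was not tested. No H3K9me2 peak of any library touched either of these 2 sites. At Il7r a peak inside the gene, 1.53 kb from its start, and another 3.48 kb upstream were called in tumour, and spleen peaks touched both. Over the 6 genes with 50 kb, 20 of 46 tumour peaks (43.5%) touched a spleen peak, beside 40.3% of all tumour peaks. In turn 19 of 26 spleen peaks (73.1%) touched a tumour peak, beside 85.1% of all spleen peaks.

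Some peaks were called in spleen with no tumour peak touching them. The highest of these 7 by score was inside Bcl2, at chr1:106600531-106601399, 113 kb from the start, with 35.0 tags (rank 4446). The stretch of Bcl2 covered by H3K9me2 in all 3 cKO libraries overlapped this peak, and H3K9me2 of WT replicate 3 touched it as well. At the Bcl2 start the tumour peak, shown in capitals above, had 29.5 tags and no counterpart in spleen. At S1pr1 both tumour peaks within 5 kb, chr3:115711964-115712286 inside the gene and chr3:115715417-115715739 beside it, were tumour-only, with 22.5 and 27.0 tags.

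Of the 46 tumour ATAC peaks at the 6 genes, H3K9me2 peaks touched 7, 10 and 2 in the cKO libraries and 1, 4 and 3 in the WT libraries. The mean shares were 13.8 ± 8.79% in cKO and 5.80 ± 3.32% in WT (SD, n = 3), and the groups overlapped. By library they were 15.2, 21.7 and 4.35% in cKO and 2.17, 8.70 and 6.52% in WT. Over all tumour ATAC peaks the shares were 8.50, 9.91 and 7.52% in cKO and 4.85, 9.37 and 7.67% in WT. Of the 26 spleen peaks, 7, 7 and 2 were touched in cKO and 0, 4 and 3 in WT, or 20.5 ± 11.1% and 8.97 ± 8.01% (SD, n = 3). Over all spleen peaks the shares were 12.6, 14.1 and 11.1% in cKO and 6.90, 12.8 and 10.9% in WT. The means with lists of equal length in both assays were 7.84% in cKO and 5.88% in WT at tumour peaks, and 8.97% and 5.13% at spleen peaks. No test was run on these shares, since peaks of 1 locus are not replicates.

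Among the 58 other pathway genes, lists of equal length gave more tumour peaks within 5 kb at 24 and more spleen peaks at 9, beside 11.2% and 10.0% of all genes. The 8 genes with the largest excess in tumour, by 2 peaks each, were Gnai2, Dock2, Itgb2, Foxo1, Foxo3, Bcl2l1, Mcl1 and Bid. Foxo1 and Mcl1, an inhibitor of apoptosis, had 2 tumour peaks each and no spleen peak. Bcl2l1 had 4 and 2, as did Dock2, which drives T cell migration, and Gnai2, the G protein subunit that carries CCR7 and S1PR1 signals. The largest excess in spleen was at Jak1, with 2 tumour and 5 spleen peaks, and at Cxcr5, the receptor for B cell follicles, with 1 and 3.

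In the lists as deposited, 7 of 8 markers of Treg and CD4 T cells had an ATAC peak within 5 kb in both tissues, among them Foxp3 with 2 in each, and Ctla4 had none. Of 6 myeloid markers, 3 had tumour peaks (Spi1 with 3, Itgam with 2 and Cd14 with 2) and none had a spleen peak, while Lyz2, Csf1r and Adgre1 were at 0 in both. Peaks were found at 2 tumour and 1 spleen of 6 CD8 T and NK cell markers, 3 and 2 of 6 B cell markers, 3 and 4 of 7 melanocyte and epithelial markers, and 2 and 3 of 6 stromal and endothelial markers. In lists of equal length the myeloid peaks were down to 1 in tumour, at Spi1, and tumour and spleen peaks were found at 7 and 7 Treg and CD4 T cell markers, 0 and 1 CD8 T and NK cell markers, 1 and 2 B cell markers, 3 and 4 melanocyte and epithelial markers, and 1 and 3 stromal and endothelial markers. The part of other cells in the tumour and spleen counts was not tested. A difference in cell makeup and a difference within Treg cannot be told apart in these bulk libraries.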

How the data were processed

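The deposited peak lists were made by the authors with HOMER findPeaks, library by library and with no input, per the file headers. The build was mm10, and the tools listed in the submitters' processing notes, without roles, were SAMtools 1.11, Bowtie2 2.4.2, Trim Galore 0.6.6, deepTools and Picard. No source used here gives whether the ATAC reads were shifted. The deposited columns are a tag signal scaled by the authors to a common library total, a peak score in tags of its own library, a fold over the local region as a ratio, its p-value, and, for ATAC, a focus ratio as a fraction. The score was used only to rank peaks within a list and to describe them. The headers count 384612 to 468160 peaks for the H3K9me2 libraries, more than the lists hold, so a further filter not given in the headers was applied. The lists hold short, locally enriched stretches, so coverage measures neither the amount of the mark nor broad, even domains.

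Peaks on chromosomes 1 to 19, X and Y were merged in each library, and coverage was computed over gene spans of a RefSeq table of GRCm38.p6. Genes with a mean of 1.0% or more were fitted in R 4.3.3 with limma 3.58.1 (group as the single term, trended empirical Bayes, Benjamini-Hochberg over all tested genes, threshold 0.05), after the fit was tested on simulated data. The simulation gave all genes a common spread and used shifts larger than any of the 6 genes showed, so it does not measure power for their differences. An ATAC peak was counted where its centre lay in the region. For lists of equal length, peaks of highest score were kept, 109589 for H3K9me2. Other tools were Python 3.11.15, pandas 2.3.3, numpy 2.4.6 and matplotlib 3.10.9. The depth, 24774509 to 30313851 tags for H3K9me2 and 11293674 and 11068821 for ATAC, may limit which weak peaks were called. Groups and replicate numbers came from the titles.

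The genes, the pathway and marker lists and the tests were chosen with earlier results of these data known. All 6 genes were named, with the nearest gene to each on another chromosome by Euclidean distance, pathway genes whose groups did not overlap, and the pathway genes with the largest ATAC differences (8 toward tumour and 4 toward spleen, the last of which were tied at 1 peak and are not named). Alternatives were list length, the stronger 50% of each list, scaling, an arcsine scale, no filter, a replicate block, leaving out each library, peaks touching the region, and, chosen after seeing the data, 100 and 200 kb on both sides.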

Additional observations from a re-analysis of the deposited data

How the results depend on the processing

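Of the alternatives run, 220 left a result's direction and side of the threshold, or its value within the spread, as it was, 36 moved it, 5 reversed it and 4 brought it past the threshold. With 5 kb on both sides, 1 gene passed limma on the arcsine scale and 12 with no filter on low values, against 0. With 50 kb, 4 passed after scaling and 2 with no filter. Leaving out 1 library each gave 0 to 335 genes (30, 15 and 335 without cKO replicates 1, 2 and 3), and 100 and 200 kb gave 50 and 60. For S1pr1 with 50 kb the difference was 6.23 to 7.53 points over the 6 sets that leave out 1 library. It was past the threshold without any 1 cKO library, but not without WT replicate 1, 2 or 3 (limma adjusted p = 0.550, 0.223 and 0.168). With 100 kb it was 5.28 (limma adjusted p = 0.0243), and with 200 kb it was 2.97 (limma adjusted p = 0.102). With lists of equal length S1pr1 with 5 kb went to 0, Ccr7 and Klf3 with 50 kb to -0.0340 and -0.134, the genes with more tumour ATAC peaks to 0 of 6 at both widths, and the cKO share of spleen ATAC peaks touched to 8.97%; the groups then overlapped at all 6 genes, and the S1pr1 difference with 50 kb was 4.12 (limma adjusted p = 1.0). Leaving out 1 library, Klf3 ranged from -0.584 (without cKO replicate 2) to 3.92 with 5 kb and from -0.331 (without WT replicate 3) to 2.04 with 50 kb. Il7r was -0.138 with 100 kb and 2.34 with 200 kb. The cause of these changes was not tested. Genes whose mean fell under 1.0% with shorter lists, Klf2 among them, gave no value there. Samples of the same replicate number in cKO and WT had correlations of their deviations of 0.0756, 0.00499 and 0.026. Those of different numbers had -0.0539 to 0.0264, and not every sample correlated best with its own number. Correlations this weak cannot settle whether the number pairs the samples. A replicate block gave 0 genes at both widths, with 1484 (5 kb) and 4254 (50 kb) at an unadjusted p under 0.05 against 1591 and 3312. Depth may limit which of these weak peaks, mostly of 5 to 12 tags, could be called, and its part was not tested.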
